A study of Mus musculus with 2 samples.

Results

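The keratin type I and type II gene clusters were examined for Brg1 occupancy in primary mouse embryonic fibroblasts. The members were defined by position, with earlier results of these data known. They were all 1 kb windows from 99100000 to 100124999 on chromosome 11 (type I, 1025 windows) and from 101170000 to 101869999 on chromosome 15 (type II, 700 windows), on mm9. Together they made up 1725 of the 2641863 windows that cover the genome up to the last tag of each chromosome. The series holds 2 libraries, 1 of chromatin precipitated with a rabbit polyclonal antibody against SNF2β/BRG1 and 1 of input taken with no antibody. Both came from wild type embryos at E13.5, mixed between the C57BL/6 and 129 strains, and nuclei were cut with micrococcal nuclease and briefly sonicated. There was 1 library per group and no replicate, so a test here sets the tags of one library against the other, not one condition against another, and each interval covers counting error only. The ChIP library held 13215004 autosomal tags and the input 5608004, or 2.36 ChIP tags per input tag. A ratio given below is ChIP over input divided by that number, so that the autosomes stand at 1.

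Keratins are the intermediate filament proteins of epithelial cells, and each filament is built from pairs of an acidic type I and a basic type II chain. Krt8 pairs with Krt18 in simple epithelia, Krt5 with Krt14 in the basal layer of stratified epithelia, and the hair keratins are embedded in the hair shaft in keratin-associated proteins (Krtap genes). Fibroblasts are mesenchymal and build their intermediate filaments mainly from vimentin. Brg1 is the ATPase of the Swi/Snf nucleosome remodelling complex. The series holds no measure of expression, so neither the cell type nor the activity of any keratin gene could be checked here.

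In the gene order of RefSeq (assembly GRCm38.p6), the type I locus runs from Krt222 to Krt42 and holds 76 genes, of which 27 are Krt genes, 23 are named Krtap and 15 are other protein-coding genes. The Krtap genes form a block between Krt40 and Krt33a, and the 15 other protein-coding genes all lie inside it. Families were taken from the gene symbols alone. The order before that block holds Krt10, a partner of Krt1 in the upper epidermis, and Krt12 and Krt20, keratins of the cornea and of the gut. The order after it holds the hair keratins Krt31 to Krt36 and then Krt13, Krt15, Krt19, Krt9, Krt14, Krt16 and Krt17. The type II locus runs from Krt80 to Krt18 and holds 40 genes, 27 of them Krt genes and none named Krtap. Krt80 and Krt7, the latter a keratin of simple epithelia, lie at its start, and Krt8 and Krt18 at its end. Between them lie hair keratins such as Krt81 and Krt86 and the keratins of stratified epithelia, among them Krt6a, Krt6b, Krt5, Krt1 and Krt4. An annotation on mm9 was not used here, so no gene is placed on a window below.

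The promoters listed for a partner pair from the basal layer and for one from simple epithelia are printed as examples. They are RefSeq sequences of GRCm38.p6, read 5′ to 3′ over 300 bases that end 50 bases after each start, and CpG dinucleotides are in capitals. Whether the listed start is the main one of each gene was not checked. Krt5 is on the minus strand of chromosome 15, Krt14 on the minus strand of chromosome 11, Krt8 on the minus strand and Krt18 on the plus strand of chromosome 15.
Krt5: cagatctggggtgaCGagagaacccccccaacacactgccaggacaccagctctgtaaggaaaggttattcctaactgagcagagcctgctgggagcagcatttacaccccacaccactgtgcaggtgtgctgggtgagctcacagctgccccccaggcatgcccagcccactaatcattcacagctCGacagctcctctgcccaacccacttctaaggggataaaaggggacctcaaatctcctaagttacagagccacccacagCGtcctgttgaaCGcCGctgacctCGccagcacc
Krt14: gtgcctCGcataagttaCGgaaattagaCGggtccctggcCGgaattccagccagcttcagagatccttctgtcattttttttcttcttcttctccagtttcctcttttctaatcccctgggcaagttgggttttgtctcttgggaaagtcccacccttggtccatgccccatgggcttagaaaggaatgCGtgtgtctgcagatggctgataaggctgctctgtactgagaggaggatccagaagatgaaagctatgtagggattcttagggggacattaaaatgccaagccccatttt
Krt8: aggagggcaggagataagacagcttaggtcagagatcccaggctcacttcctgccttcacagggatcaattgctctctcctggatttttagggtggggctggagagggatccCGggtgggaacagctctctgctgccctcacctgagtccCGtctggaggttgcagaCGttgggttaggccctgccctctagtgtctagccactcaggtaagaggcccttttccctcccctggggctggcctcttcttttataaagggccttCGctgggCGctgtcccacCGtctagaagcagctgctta
Krt18: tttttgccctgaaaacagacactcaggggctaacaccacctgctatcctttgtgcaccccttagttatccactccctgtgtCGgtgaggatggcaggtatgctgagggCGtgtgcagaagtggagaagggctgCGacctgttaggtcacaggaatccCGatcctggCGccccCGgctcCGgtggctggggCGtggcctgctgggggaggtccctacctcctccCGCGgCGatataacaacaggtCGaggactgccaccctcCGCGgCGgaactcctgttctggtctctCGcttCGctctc

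Krt18 had 17 CpG dinucleotides in its 300 bases, against 6 in Krt8, 6 in Krt5 and 5 in Krt14. Among the 37 Krt promoters of both loci in the table, Krt7 had the most, 21, and it lies near the other end of the type II locus. The median was 5 in 21 Krt promoters of the type I locus, 6 in 16 of the type II locus and 2 in 21 Krtap promoters. It was 7 in all 32851 promoters of the table. Promoters were grouped by locus and not by chain type, so Krt18 counts with the type II locus. The letters TATAAA, searched on both strands, were in 20 of the 21 Krtap promoters and in 13.6% of all promoters. They were in 13 of 21 Krt promoters of the type I locus and 6 of 16 of the type II locus. The AP-1 motif TGANTCA, which reads the same on both strands, was in 5 of 21 Krtap promoters and in 7.81% of all promoters. It was in 2 of 21 Krt promoters of the type I locus and 0 of 16 of the type II locus. Family members share sequence by descent, so these counts describe the loci and are not independent draws. A match is a description of the letters, and no tag count was tied to it.

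Across each whole cluster the ratio of Brg1 ChIP to input was slightly under the autosomal level and well under that of its surroundings. In type I and type II the ChIP tag density alone was at 1.01 and 1.15 times its autosomal mean. The input density was at 1.11 and 1.26 times its own. In the type I cluster 5529 ChIP tags stood beside 2576 input tags, giving 0.911 (95% interval 0.869 to 0.955). In the type II cluster 4309 stood beside 2002, giving 0.913 (0.866 to 0.964). Both were lower than the autosomes (two-sided exact binomial test, Benjamini-Hochberg adjusted over 9 region comparisons, p = 0.000132 and p = 0.00101). This direction turned when ChIP was scaled on 10 kb windows with few ChIP tags, which put the clusters at 1.24 and 1.24. The chromosomes as a whole stood at 1.04 (chromosome 11) and 1.02 (chromosome 15), so the clusters were also under the level of their own chromosomes. A position just under 1 is common at this scale: 43.7% of 2334 consecutive autosomal pieces of the same length as the type I cluster, and 43.9% of 3408 of the length of the type II cluster, passed the same test in the same direction. Of these pieces 35.4% had a ratio as low as that of the type I cluster or lower, and 38.9% one as low as that of the type II cluster.

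The contrast with the neighbouring chromatin was larger. In the 1 Mb on each side of the type I cluster the ratio was 1.23 (1.18 to 1.28) on the left and 1.32 (1.27 to 1.38) on the right. The cluster was at 0.741 times the left flank (0.696 to 0.789, Fisher's exact test, two-sided, adjusted p = 7.20e-21) and at 0.689 times the right (0.647 to 0.733, exact test, adjusted p = 1.41e-31). Against both flanks together it was at 0.714 times (0.676 to 0.754, exact test, adjusted p = 6.10e-32). Around the type II cluster the ratio was 1.08 (1.03 to 1.12) on the left and 1.30 (1.25 to 1.35) on the right. The cluster was at 0.848 times the left flank (0.793 to 0.907, exact test, adjusted p = 2.03e-06), at 0.703 times the right (0.658 to 0.753, exact test, adjusted p = 3.03e-24) and at 0.771 times both (0.725 to 0.819, exact test, adjusted p = 8.80e-17). These contrasts do not depend on the scaling of the libraries, and the direction held in the 8 alternatives that can move them, for each of the 6.

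With so many tags a small contrast passes such a test: 34.1% of 2276 autosomal pieces of the type I length, and 32.9% of 3345 of the type II length, were also lower than their flanks at an adjusted p under 0.05. The size of the contrast was less common. Only 33 of the 2276 pieces (1.45%) were as far under their flanks as the type I cluster, and 175 of the 3345 (5.23%) as far as the type II cluster. The 5th percentile of the pieces was 0.783 for the type I length, above the cluster, and 0.768 for the type II length, just below it. These are descriptions, since neighbouring pieces share chromatin domains.

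**Figure D1:**
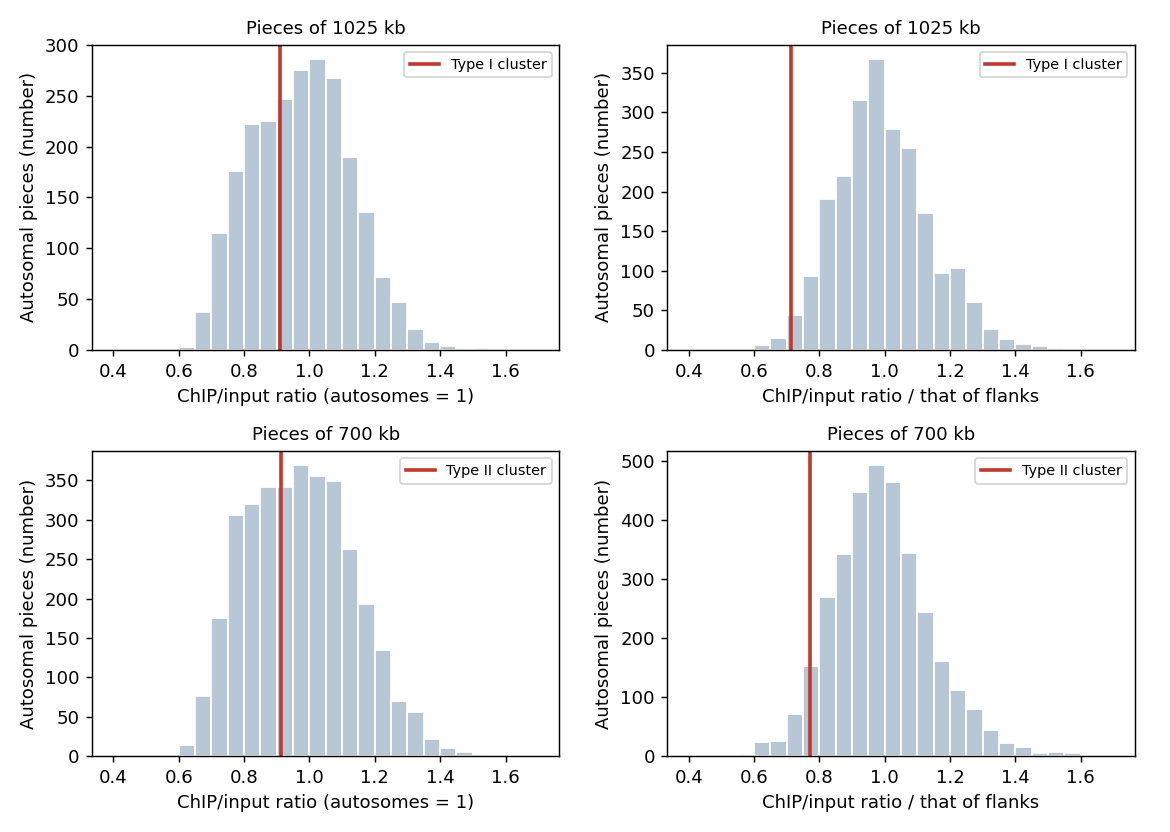
Number of consecutive autosomal pieces (vertical axis) by ChIP/input ratio (left) and by that ratio over the ratio of 1 Mb on each side (right), for pieces of 1025 kb (top) and 700 kb (bottom); red lines mark the clusters. The clusters lie at 0.911 and 0.913, inside the bulk of the left panels, and at 0.714 and 0.771, towards the lower end of the right panels.

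Both libraries were less dense in the clusters than beside them, and the ChIP more so. In the type I cluster the ChIP had 5.39 tags per kb, 1.01 times its autosomal mean (0.983 to 1.04, exact Poisson interval), against 1.70 and 1.84 times in the flanks. The input had 2.51 tags per kb there, 1.11 times its mean (1.07 to 1.15), against 1.38 and 1.39 times. In the type II cluster the ChIP was at 1.15 times its mean (1.12 to 1.19) between flanks at 1.54 and 1.77, and the input at 1.26 times (1.21 to 1.32) between flanks at 1.43 and 1.36. The clusters therefore lay in chromatin of high tag density and dropped towards the autosomal mean in both libraries.

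**Figure D2:**
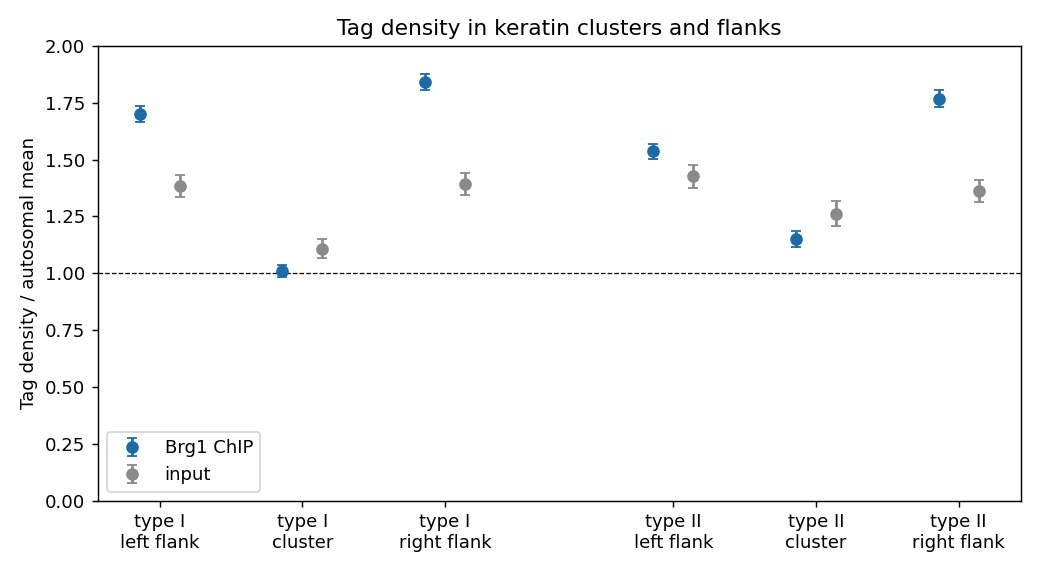
Tag density over the autosomal mean of each library (vertical axis, autosomal mean at 1) for the clusters and their left and right flanks of 1 Mb; points are Brg1 ChIP (blue) and input (grey) and bars are exact Poisson 95% intervals. The ChIP exceeds the input in all 4 flanks and is under it in both clusters.

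No difference between the clusters was detected over their whole length, with a type I over type II ratio of 0.997 (0.929 to 1.07, Fisher's exact test, adjusted p = 0.943). Their inner shape was not alike. With 50 kb taken off both ends of each interval, that ratio was 1.11 (exact test, adjusted p = 0.00641). Without the outer 100 kb on each side the type I cluster stood at 0.948 (0.899 to 0.998) and the type II cluster at 0.759 (0.709 to 0.813). In the first 100 kb of the type II interval 1049 ChIP and 364 input tags gave 1.22, and in the last 100 kb 906 and 322 gave 1.19. In the type I interval the first 100 kb stood at 0.770 and the last at 0.754. At all 4 borders the 100 kb inside were lower than the 100 kb outside, by factors of 0.687 (0.553 to 0.853) and 0.743 (0.605 to 0.912) for type I and 0.794 (0.667 to 0.944) and 0.764 (0.637 to 0.915) for type II. The type II interval thus had raised ends around a low middle, and the type I interval dropped at its borders.

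Windows of 50 kb traced this along the chromosomes. The rule for a call was a Benjamini-Hochberg adjusted p under 0.05 (exact binomial test, all windows of the genome) together with a ratio of 1.5 or more, or its inverse or less. Of 20 type I windows 16 had a ratio under 1, with a median of 0.893, against 6 of 20 in the left flank and 2 of 19 in the right. Of 13 type II windows 10 had a ratio under 1, with a median of 0.801, against 9 of 19 on the left and 3 of 19 on the right. Over the 50755 windows tested in the genome 32298 had a ratio under 1. Their median was 0.904 over all 50755, so that the type I median lay near the common level. In both clusters together 5 of 33 windows were called lower (15.2%), against 8.34% of 50755 in the genome, and 2 were called higher (6.06%), against 4.75%. In the 4 flanks 13 windows were called higher and 1 lower.

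The lowest 50 kb window of the type I cluster lay at 99800000 to 99849999, with 196 ChIP and 144 input tags (ratio 0.578, interval 0.463 to 0.721, exact binomial test, adjusted p = 3.06e-05). Its left neighbour, at 99750000 to 99799999, was also called lower with 131 and 86 (ratio 0.646, 0.489 to 0.859, exact test, adjusted p = 0.0139). The highest lay at 99400000 to 99449999, with 483 and 131 (ratio 1.56, 1.29 to 1.91, exact test, adjusted p = 6.41e-05), and was the only type I window called higher. In the type II cluster the lowest was at 101600000 to 101649999, with 206 and 146 (ratio 0.599, 0.482 to 0.745, exact test, adjusted p = 8.84e-05). The windows at 101350000 (237 and 155, ratio 0.649) and 101550000 (227 and 148, ratio 0.651) were called lower as well. The highest was the first whole window of the cluster, at 101200000 to 101249999, with 665 and 186 (ratio 1.52, 1.29 to 1.79, exact test, adjusted p = 7.31e-06). From 101250000 to 101799999 every window except that at 101400000 (265 and 94, ratio 1.20) had a ratio under 1, and the last whole window, at 101800000, rose to 1.36 (1.14 to 1.61) without reaching the call. With the grid moved by 25 kb no 50 kb window of either cluster was called higher, against 4.77% in the genome. On that grid 4 were called lower (12.1%, against 8.39%). With ChIP scaled on windows of few ChIP tags all 5 calls in the lower direction were lost, among them those at 99800000 (ratio 0.785, exact test, adjusted p = 0.0734) and 101600000 (ratio 0.814, exact test, adjusted p = 0.134).

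**Figure D3:**
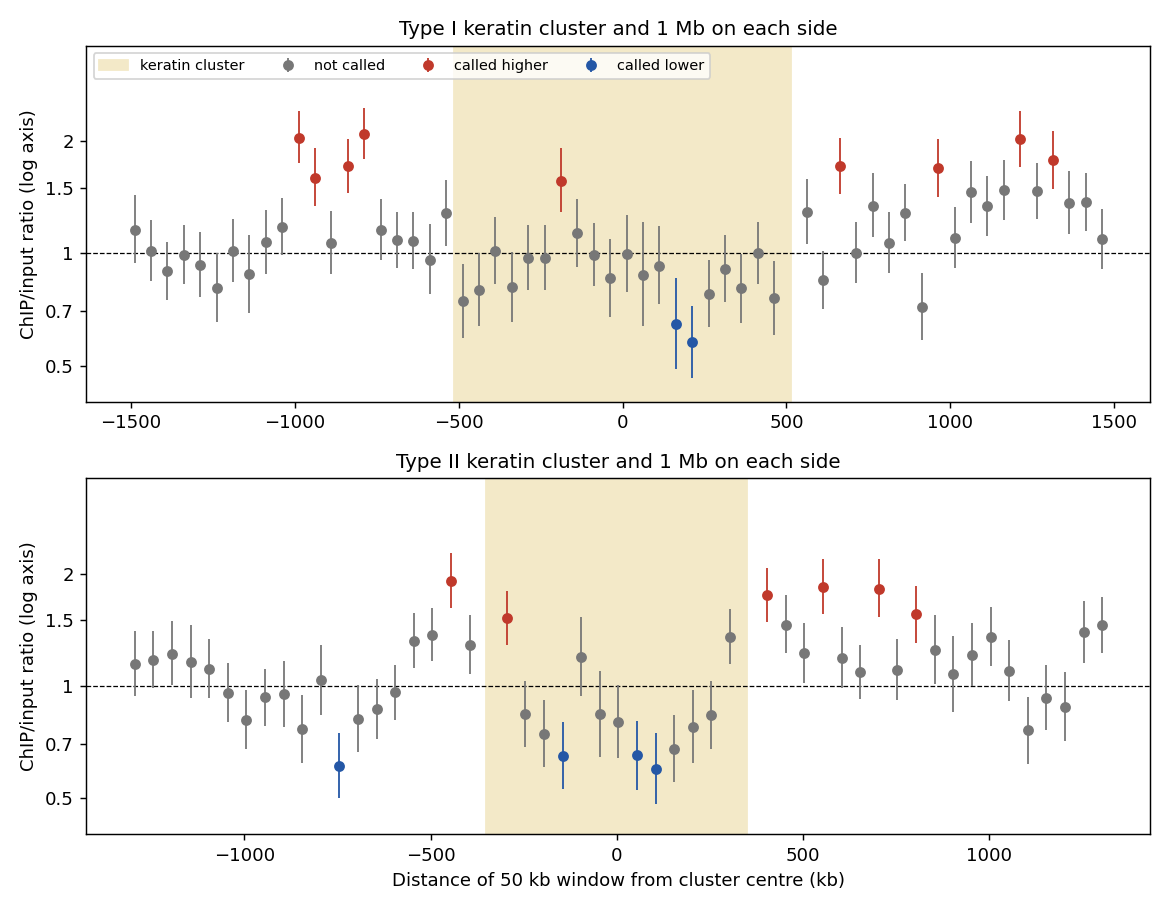
ChIP/input ratio (vertical log axis, autosomes at 1) of 50 kb windows by distance from the cluster centre in kb; bars are exact 95% intervals, the shaded band is the cluster, and windows called higher are red and lower blue. The type I band holds 16 of 20 windows under 1, and the type II band is lowest in its middle and above 1 at both ends.

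Windows of 10 kb narrowed the calls. The type I members held a median of 49.5 ChIP tags (quartiles 39.3 and 64) and 26 input tags, against 83 and 31 in the flanks. The type II members held a median of 49.5 ChIP tags (43 and 64.8) and 29 input tags, against 78.5 and 32. Of 171 member windows with at least 10 tags, 5 were called higher (2.92%), against 3.98% of 249877 in the genome, and 4 lower (2.34%), against 1.11%. Calls in the higher direction were made in 27 of 199 flank windows around type I and 22 of 200 around type II. The median ratio was 0.833 in the type I and 0.819 in the type II members, against 0.898 over the genome.

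**Figure D4:**
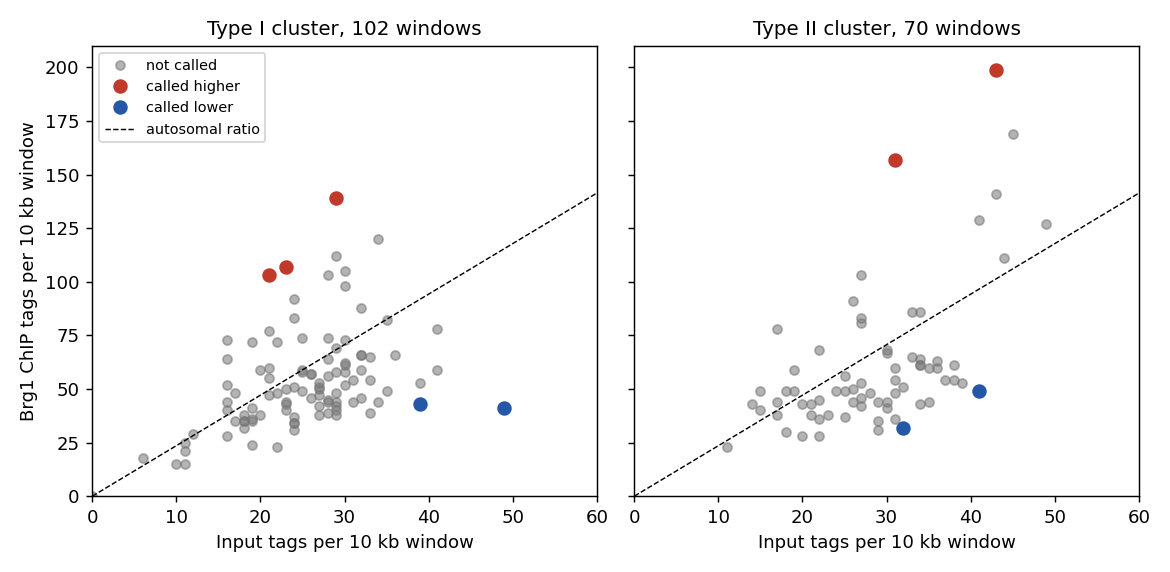
Brg1 ChIP tags (vertical axis) against input tags (horizontal axis) in each 10 kb window of the type I (left, 102 windows) and type II (right, 70 windows) clusters; the dashed line is the autosomal ratio. Of the 171 windows tested 119 lie under the line, as do 152884 of 249877 in the genome. The 5 called higher (red) and 4 called lower (blue) are at the edges of the cloud.

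In the type I cluster 4 of the 5 called 10 kb windows lay between 99380000 and 99449999. The window at 99440000 to 99449999 had 139 ChIP and 29 input tags (ratio 2.03, 1.36 to 3.15, exact binomial test, adjusted p = 0.0101), and its left neighbour at 99430000 had 107 and 23 (ratio 1.97, 1.25 to 3.25, adjusted p = 0.0465). At 99380000 to 99389999 there were 103 and 21 (ratio 2.08, 1.29 to 3.51, exact test, adjusted p = 0.0343). Directly beside it, at 99390000 to 99399999, there were 41 ChIP and 49 input tags, the lowest ratio of the called windows at 0.355 (0.229 to 0.549, exact test, adjusted p = 0.000177). Its 49 input tags were the most in any 10 kb window of the type I cluster. Its 41 ChIP tags lay within the ChIP quartiles of that cluster (39.3 and 64). The step thus ran in opposite directions in the libraries, from 103 to 41 ChIP tags and from 21 to 49 input tags. The per-kb ChIP counts on the first side of this step were 6, 5, 17, 3, 4, 17, 11, 20, 11 and 9, and on the second 4, 7, 6, 1, 2, 4, 5, 4, 4 and 4. The input counts were 2, 2, 4, 2, 3, 0, 4, 0, 2 and 2, then 4, 5, 3, 6, 5, 5, 5, 5, 7 and 4. The remaining window, called lower, lay apart from them at 99830000 and had 43 and 39 (ratio 0.468, 0.296 to 0.741, exact test, adjusted p = 0.0270). Its 43 ChIP tags were also within the type I quartiles, and its 39 input tags were over the upper input quartile of 30.

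In the type II cluster the windows called higher lay within the outer 100 kb at each end. The outermost windows, at 101170000 (ratio 1.07) and 101860000 (ratio 0.799), were not called. The called window at 101200000 to 101209999 had 199 ChIP and 43 input tags (ratio 1.96, 1.41 to 2.80, exact binomial test, adjusted p = 0.00151). That at 101800000 to 101809999 had 157 and 31 (ratio 2.15, 1.45 to 3.27, exact test, adjusted p = 0.00210). The windows called lower, at 101660000 with 32 and 32 (ratio 0.424, 0.252 to 0.715, exact test, adjusted p = 0.0277) and at 101530000 with 49 and 41 (ratio 0.507, 0.328 to 0.788, exact test, adjusted p = 0.0464), lay in the middle. The 49 ChIP tags at 101530000 were within the type II quartiles (43 and 64.8), and its 41 input tags were over the upper input quartile of 34. At 101660000 the 32 ChIP tags were under the lower quartile, and the 32 input tags were within the input quartiles (22 and 34). Scaling on windows of few ChIP tags left 1 of the 4 lower calls of both clusters, that at 99390000. It ended those at 99830000 (exact test, adjusted p = 0.237), 101660000 (exact test, adjusted p = 0.186) and 101530000 (exact test, adjusted p = 0.356). The call at 101530000 was also lost with at most 1 tag per position (exact test, adjusted p = 0.0517), and that at 99430000 in the type I cluster with tags left unmoved (adjusted p = 0.0596).

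At 1 kb depth limited what could be seen, since 550 of the 1725 windows had the 10 tags needed for a test. That minimum is on the sum of both libraries and the ChIP is the deeper one, so it favours windows rich in ChIP tags. The median ratio of the tested windows of the genome was 1.13 at 1 kb and 0.898 at 10 kb. The shares that follow hold for tested windows only. Of the 550 a single one, 0.182%, was called higher, against 0.38% of 706215 in the genome. In the lower direction 0 were called, against 0.00666%. At an unadjusted p under 0.05 in the same exact test, 24 (4.36%) were higher and 15 (2.73%) lower, against 5.98% and 1.70% in the genome. The called window lay in the type II cluster at 101807000 to 101807999, with 34 ChIP tags and 1 input tag (ratio 14.4, 2.42 to 586, exact binomial test, adjusted p = 0.0403). The next window had 33 and 3, and from 101804000 on the ChIP counts per kb were 22, 18, 16, 34, 33, 9 and 21, so the high counts spread over several kb. The call was lost when its input count was replaced by the 10 kb input mean wherever that was larger (ratio 4.81, exact test, adjusted p = 0.414). It was also lost with 1 tag kept per position (exact test, adjusted p = 0.0529). In the type I cluster the 1 kb windows with the highest lower bounds were not called. That at 99387000 had 20 ChIP tags and 0 input tags, a ratio of at least 2.83 when 3 tags are taken as the floor for that window (exact lower bound 2.10, adjusted p = 0.147). That at 99442000 had 27 and 1 (ratio 11.5, 1.89 to 469, exact test, adjusted p = 0.125).

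**Figure D5:**
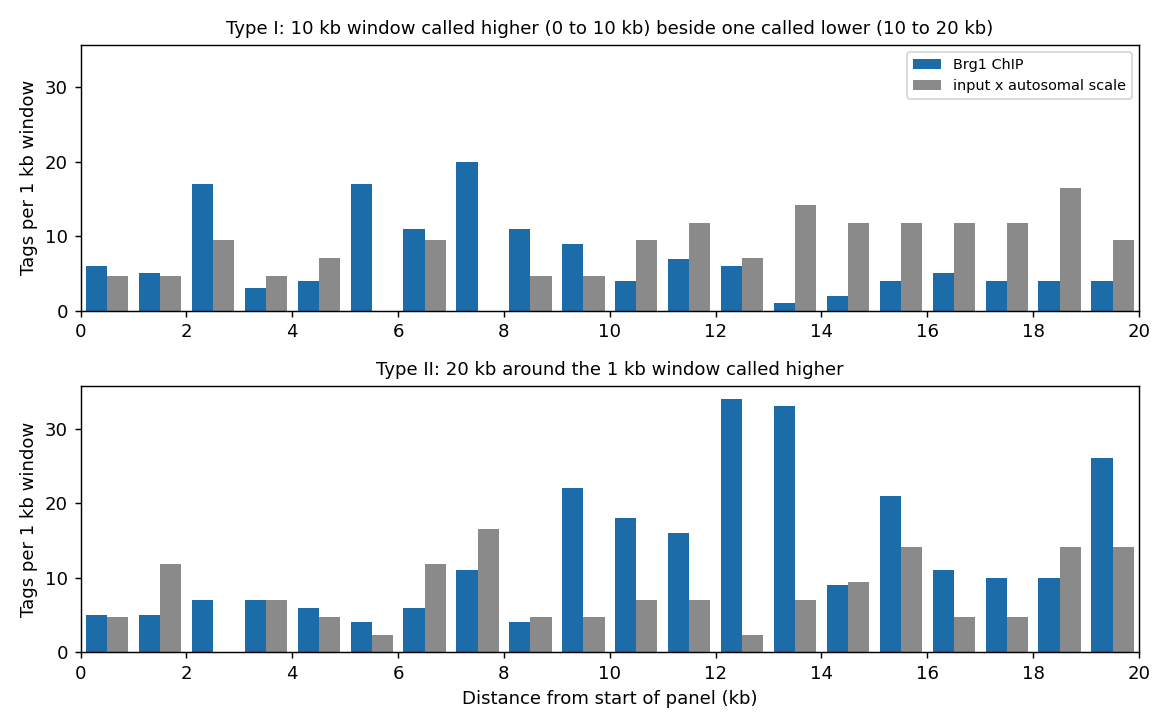
Tags per 1 kb window (vertical axis) by distance in kb from the start of each 20 kb panel; blue bars are ChIP tags and grey bars input tags times the autosomal scale of 2.36. The upper panel goes from 103 ChIP tags in its first 10 kb to 41 in its second, and the lower panel reaches 34 and 33 ChIP tags in neighbouring windows.

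Windows with 20 or more ChIP tags, whatever their input, were sparser in the clusters than in their flanks. They made up 12 of 1025 type I windows (1.17%, Clopper-Pearson interval 0.606 to 2.04) and 18 of 700 type II windows (2.57%, 1.53 to 4.03), against 1.97% of autosomal windows. In the flanks they made up 8.40% and 8.60% around type I and 5.30% and 7.80% around type II. All 18 of the type II cluster were in its outer parts, 12 in the first 100 kb and 6 in the last, and the 500 windows between them had 0, with a highest count of 17 (0 of 500 windows allows a share of up to 0.6%, taking 3 windows of the total as the limit and not the 2-sided interval above). The type I cluster had 0 in its first and last 100 kb and 12 in the 825 windows between. With 100 windows at each end and a share of 1.17% in the whole cluster, few were to be counted at the ends. No contrast between its ends and its middle is read from these counts. The highest counts were 44 at 101199000 and 37 at 101200000 in type II, beside 6 and 3 input tags, and 33 at 99247000 in type I, beside 2.

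Windows without any tag were more common in the type I cluster than in its flanks. They made up 40 of its 1025 windows (3.90%, 2.80 to 5.28), against 0.5% in each flank and 5.39% of autosomal windows. In the type II cluster they were 8 of 700 (1.14%, 0.495 to 2.24), against 0.5% and 0.4%. The longest run was 11 kb in the type I cluster, at 99660000 to 99670999, and 2 kb in the type II cluster. The 50 kb window that holds the longer run had 124 ChIP and 60 input tags, the fewest input tags of the 33, at a ratio of 0.877 (0.639 to 1.21).

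The spacing of tags at nucleosome size was also counted. ChIP tag pairs on the same strand at 150 to 200 bp were 1.08 times as frequent per bp as those at 900 to 1000 bp in the type I cluster and 1.12 times in the type II cluster, against 1.09 on the autosomes. In the input the values were 1.22 and 0.980, against 1.03, from 204 and 150 pairs. Pairs share tags and are no independent counts, so no difference is read from these values.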

How the data were processed

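Each deposited file lists chromosome, strand, position and the count of tags there, and no normalization is recorded. The authors mapped reads with Bowtie to mm9, per the submitters' processing notes; settings and the filter on repeated tags are not given in the sources used here. On chromosomes 11 and 15 the deposited counts reach 2 per position in the ChIP and 1 in the input. Whether positions count from 0 or 1 is not stated, so they are printed as deposited.

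Tags were moved 75 bp along their strand and counted in windows of 1, 10 and 50 kb and over the clusters and 1 Mb on each side. Windows with at least 10 tags were tested over the whole genome (two-sided exact binomial test, Benjamini-Hochberg). The p was first computed as the sum over all outcomes no more likely than the one seen, and was changed to double the smaller tail after the calls under both had been seen, to follow an earlier treatment of these data. The change took the lower 10 kb calls in the clusters from 5 to 4 and left the other cluster counts as they were; in the genome it took the 1 kb calls from 3339 higher and 177 lower to 2684 and 47. Members of 10 and 50 kb lie wholly inside a cluster. Pieces needed at least 100 input tags. The named windows were those called, at most 6 higher and 4 lower per cluster at 10 kb and 8 at 1 kb (with none called, the 2 with the highest lower bound), and the highest and lowest at 50 kb; other windows were named after their values were seen. Members and tests were chosen with earlier results of these data known, and the border widths, the windows of 20 tags, the 1 kb stretches plotted and the promoter features after values from the files were seen; these carry no p. Of 27 Krt genes per locus, 20 (type I, 21 starts) and 16 (type II) matched a RefSeq promoter. The steps were tested on simulated data. Python 3.11.15, numpy 2.4.6, scipy 1.17.1, pandas 2.3.3 and matplotlib 3.10.9 were used.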

Additional observations from a re-analysis of the deposited data

How the results depend on the processing

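The 6 contrasts between a cluster and its flanks stayed under 1 and past the threshold in the 8 alternatives that can move them (the 3 other scalings cancel in such a contrast), over a range of 0.690 to 0.753 for type I and 0.704 to 0.791 for type II with both flanks. Scaling on autosomal 10 kb windows under the median ChIP count turned the ratios against the autosomes to 1.24 and 1.24. That choice by its construction lowers the scale (to 0.736 of its value). The other 10 alternatives kept both ratios under 1 and past the threshold. Flanks of 500 kb or 2 Mb, counted among these, cannot move a ratio against the autosomes. The scaling on windows of few ChIP tags gave 9 higher 1 kb windows (1.64%, against 2.79% in the genome). At 10 kb it gave 22 higher (12.9%, against 13.1%) and 1 lower (0.585%, against 0.123%). At 50 kb it gave 5 higher (15.2%, against 24.5%) and 0 lower (against 0.118%). Intervals shortened by 50 kb turned the type I over type II ratio to 1.11. The 1 kb window called higher became 0 windows with at most 1 tag per position (against 0.281% in the genome) or 1 tag per strand within 5 bp (against 0.0585%). It also became 0 with unmoved tags (against 0.378%) or no minimum (against 0.0295%). The same held with the input held at its 10 kb mean (against 0.0128%) or windows of 500 bp (against 0.00376%). The count was 3 with windows of 2 kb (0.405%, against 0.802% in the genome) and 8 with a minimum of 20 tags (17.0% of fewer tests, against 19.4%). A ratio of at least 2 left 3 higher 10 kb windows of 171 (against 2.93% in the genome). At 50 kb it left 0 higher and 0 lower (against 0.433% and 0.254% in the genome). With genome shares this small, 0 of 33 windows is not read as a loss particular to the clusters. With 1 tag per strand within 5 bp 1 higher 50 kb window was left (3.03%, against 4.21% in the genome). A grid moved by 5 kb left 2 lower 10 kb windows (1.17%, against 1.12% in the genome), a share near that of the genome. A grid moved by 25 kb, chosen after seeing the data, left 0 higher 50 kb windows (against 4.77%). The p from all outcomes no more likely, the form computed first, gave 5 lower 10 kb windows (2.92%, against 1.48% in the genome) in place of 4. Of 127 values for named windows 105 kept the call, 22 lost it and 0 turned. Where no cause is given it was not tested. No paired analysis was possible because there is a single library of either kind.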
